A study of Mus musculus with 8 samples.

Results

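The matrix metalloprotease module of mouse skin after hair plucking comprised every gene on the array named Mmp, Adamts or Timp with a number, matched by symbol. It held 46 of the 34790 gene names on the array: 23 Mmp genes with 29 probes, 19 Adamts genes with 32 probes and 4 Timp genes with 5 probes, 66 probes in all. Of these genes, 36 were well above background on all 8 arrays, 7 on some arrays and 3 (Mmp1a, Mmp20 and Mmp21) on none. The RNA came from female C57BL/6 mice whose back-skin hair follicles had been brought into step by an earlier wax stripping, a treatment that all groups shared. One array each was hybridised for a shaved control taken at the time of shaving and for skin taken after the hairs had been plucked with wax, once at 12 h and otherwise on days 1, 2, 4, 6, 10 and 50. The mice were labelled as 10 weeks old for the shaved control and up to day 4, as 11 weeks old on days 6 and 10, and as 17 weeks old on day 50. The treatment protocol gives a younger age for the mice used, and the sources did not settle which age applied at plucking. The control was shaved and not waxed a second time, and age and time after plucking cannot be told apart. How many mice gave each RNA was not given in the sources used here.

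Matrix metalloproteases (MMPs) are zinc enzymes that cut collagens, laminins and other matrix proteins, and most are made as inactive proenzymes that another protease has to open. ADAMTS proteases are secreted relatives with thrombospondin repeats; some trim procollagen, others cut large proteoglycans such as versican and aggrecan. The TIMPs are their tissue inhibitors, which bind the active site. In skin these genes are known for wound repair and for the matrix turnover around growing hair follicles.

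The labels call the tissue adipose cells, but by the study's design the RNA came from both fat and dermis outside the follicles. All 8 adipocyte markers (among them Adipoq, Plin1 and Fabp4) were well above background on every array, with a log2 summed signal between 8.54 on day 6 and 9.77 on day 2. All 8 fibroblast, 8 keratinocyte, 8 hair shaft and inner root sheath and 6 skeletal muscle markers were also well above background on every array. The samples were therefore mixed tissue by these markers, and in such bulk RNA fewer cells of a type and less RNA per cell cannot be told apart. Over the arrays 72.9 to 81.2% of spots were well above background, and none was saturated. The quality report of the 10 d array put its spike-in slope, 0.891, outside the range set by the scanner software, and those of the other 7 arrays within it.

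Levels are given as log2 of the scanner's processed signal relative to the 75th percentile of the same array, so a level of 0 is the 75th percentile, and a difference of 1 is 2-fold. Levels of different probes are not comparable with each other. A gene counted as higher or lower where its brightest probe differed by at least 2-fold from the shaved array and its signal exceeded background clearly on whichever array was brighter, by the scanner's own flag (well above background). With 1 array a group no difference carries a test or a biological error. The technical spread can be judged from repeated spots of one probe, whose median SD was 0.06 to 0.09 (log2), and from different probes of one gene, whose differences from shaved varied with a median SD of 0.15 to 0.18 (log2).

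Of the Mmp genes with a listed promoter, 10 lie side by side on chromosome 9, in the order Mmp13, Mmp12, Mmp1b, Mmp3, Mmp1a, Mmp10, Mmp8, Mmp27, Mmp20 and Mmp7. The 100 bases before the start of 8 of them are shown (RefSeq, GRCm38.p6, 5′ to 3′ on the strand of the gene). They include the collagenase genes and Mmp3, which are named in the 12 h and 4 d results. Capitals mark the motif TGAGTCA or, read on the other strand, TGACTCA, the consensus site of the AP-1 transcription factor. All genes of the cluster with this motif are shown, while Mmp27 and Mmp20, without it, are not. For Mmp12 and Mmp7 the listed start with the motif is shown, and the other, without it, is not.
Mmp13, chr9:7272414-7272513, plus strand: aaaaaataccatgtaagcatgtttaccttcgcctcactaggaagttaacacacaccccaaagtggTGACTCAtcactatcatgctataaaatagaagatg
Mmp12, second listed start, chr9:7347274-7347373, plus strand: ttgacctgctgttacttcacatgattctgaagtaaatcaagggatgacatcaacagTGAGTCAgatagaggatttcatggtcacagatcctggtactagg
Mmp1b, chr9:7388027-7388126, minus strand: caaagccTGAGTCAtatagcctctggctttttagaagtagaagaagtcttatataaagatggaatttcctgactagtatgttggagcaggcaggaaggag
Mmp3, chr9:7445722-7445821, plus strand: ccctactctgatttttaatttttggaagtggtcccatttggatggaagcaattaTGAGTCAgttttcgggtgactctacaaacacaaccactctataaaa
Mmp1a, chr9:7464041-7464140, plus strand: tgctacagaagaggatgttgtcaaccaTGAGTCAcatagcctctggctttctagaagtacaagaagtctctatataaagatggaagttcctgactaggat
Mmp10, chr9:7502242-7502341, plus strand: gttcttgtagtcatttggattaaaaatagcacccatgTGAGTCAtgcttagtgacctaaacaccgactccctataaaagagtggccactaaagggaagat
Mmp8, chr9:7558329-7558428, plus strand: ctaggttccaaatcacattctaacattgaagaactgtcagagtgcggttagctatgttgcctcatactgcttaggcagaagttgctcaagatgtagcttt
Mmp7, first listed start, chr9:7691990-7692089, plus strand: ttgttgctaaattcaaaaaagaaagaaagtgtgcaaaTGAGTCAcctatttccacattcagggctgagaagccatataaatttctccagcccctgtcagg

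Of the 46 genes, 32 had at least 1 promoter in the RefSeq table. Within 250 bases before the start the motif was found in 7 of the 10 genes of the chromosome 9 cluster and in 0 of the other 22. Over all genes in that table the share was 5.16% (1395 of 27025 genes, counting either strand). In Mmp13 the motif began 35 bases before the start, in Mmp3 46 bases and in Mmp10 63 bases. Mmp8, Mmp27 and Mmp20 had no match in their windows, and neither had the other listed start of Mmp12 or of Mmp7. These are matches of letters and not measured binding sites.

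The cluster did not move as one block. On the 12 h array Mmp13 and Mmp8 were at least 2-fold higher than on the shaved array and Mmp27 was lower, whereas Mmp3, Mmp10, Mmp12 and Mmp7 differed by less than 2-fold. Mmp1b was above background at 12 h only, too faintly for a fold. Of these, Mmp13, Mmp1b, Mmp3, Mmp10, Mmp12 and Mmp7 carry the motif, so genes with it were found both with and without a higher signal at 12 h.

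**Figure D1:**
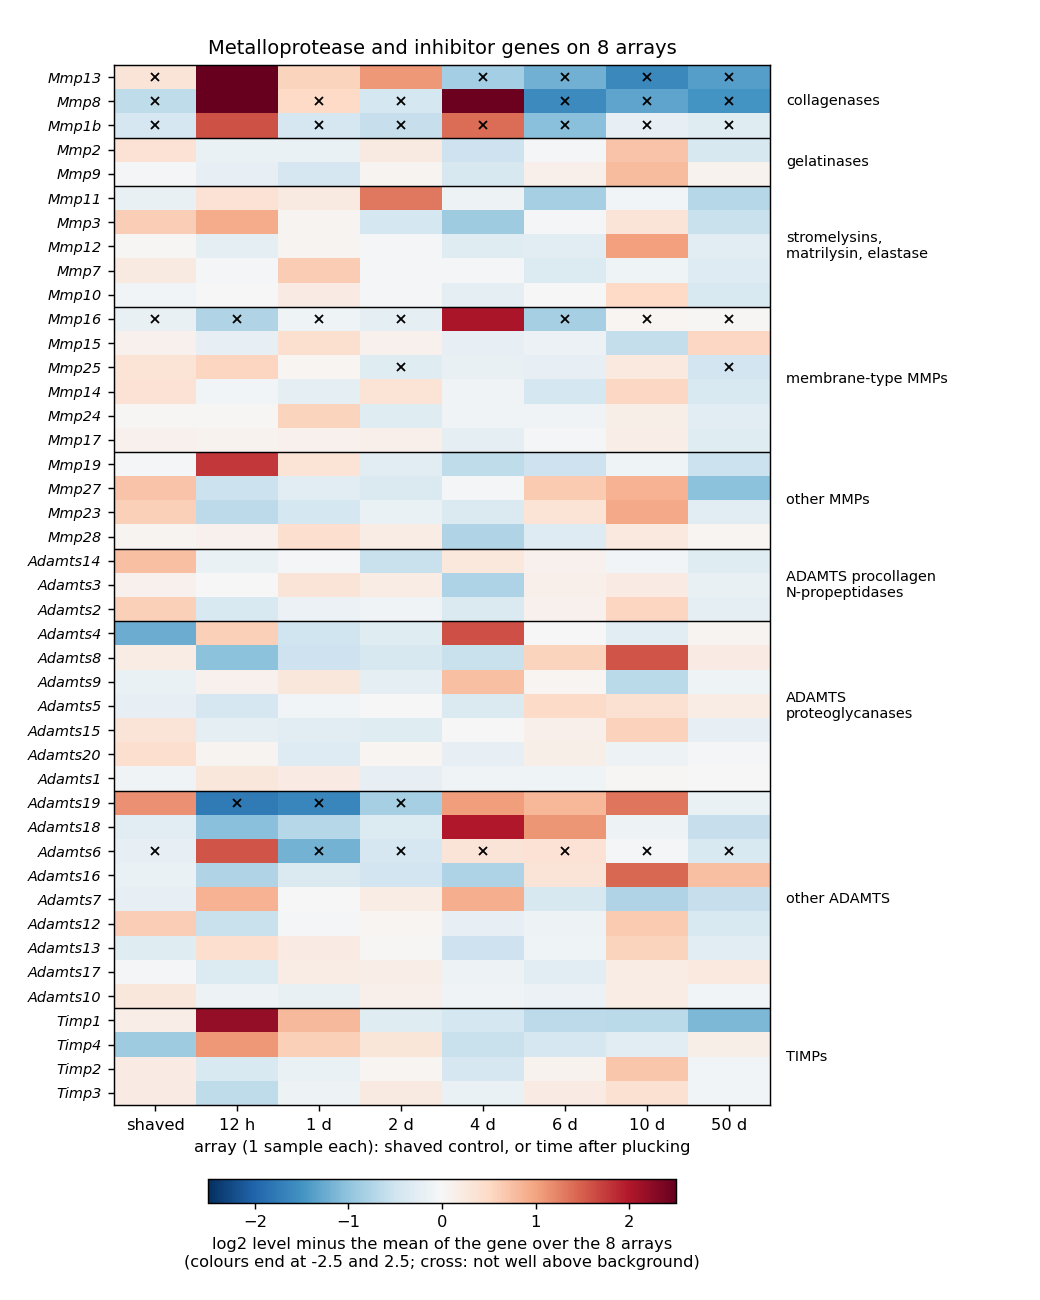
Level of each gene on each array minus its mean over the 8 arrays (log2, colour), for the 43 genes well above background on at least 1 array, grouped by role, with crosses on values not well above background. Mmp13, Mmp8 and Timp1 are at their highest at 12 h, Adamts4 and Adamts18 at 4 d.

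By the count of 2-fold differences the 12 h array stood farthest from shaved skin, though by the module's median the 4 d, 6 d and 50 d arrays did. At 12 h, 9 of the 42 genes well above background on either array were at least 2-fold higher (Mmp13, Mmp8, Mmp1b, Mmp19, Adamts4, Adamts6, Adamts7, Timp1 and Timp4), or 21.4%, against 3.85% of all genes. At the same time 5 were lower (Mmp23, Mmp27, Adamts8, Adamts12 and Adamts19), or 11.9%, against 3.33% of all genes. With the dim genes set at their lower bound, 7 remained higher (2.98% of all genes), without Mmp1b and Adamts6, and 5 lower (3.23% of all genes). The median difference over all 46 genes was -0.24, and over the 42 it was -0.18, against -0.05 over all genes. Keratinocyte markers stood beside these values at 12 h, with 7 of 8 higher and a log2 summed signal of 7.01 against 4.81 shaved (3.57 to 8.09 on the other arrays). Hair shaft and inner root sheath markers were also higher in 7 of 8, at 4.88 against 2.73 shaved (2.73 to 9.55 on the other arrays), as were 4 of 9 neutrophil markers. Their part in the 12 h differences was not tested.

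At 1 d only Timp4 was higher (1 of 39 genes; 2.66% of all genes), and 2 were lower (Mmp23 and Adamts19; 3.21% of all genes). At 2 d Mmp11 and Timp4 were higher (2 of 39; 2.56% of all genes) and Mmp3, Mmp27, Adamts14 and Adamts19 lower (4 of 39; 3.57% of all genes). At 4 d Mmp8, Mmp16, Adamts4, Adamts7 and Adamts18 were higher (5 of 40; 5.86% of all genes) and Mmp3 was lower (1 of 40; 6.58% of all genes). The 4 d array thus held the largest background share in both directions. With dim genes at their bound, Mmp16 left the higher genes at 4 d, leaving 4 (5.23% of all genes).

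At 6 d Adamts4 and Adamts18 were higher (2 of 38; 4.18% of all genes), and at 10 d Adamts8 and Adamts16 (2 of 38; 3.76% of all genes). None of the 38 genes was lower at 6 d, when 2.09% of all genes were, or at 10 d, when 2.29% were. At 50 d Adamts4 and Timp4 were higher (2 of 38; 2.72% of all genes), and Mmp3, Mmp27, Adamts14, Adamts19 and Timp1 were lower (5 of 38, or 13.2%; 4.4% of all genes). All 7 comparisons share the one shaved array, so a value peculiar to that array enters each of them.

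**Figure D2:**
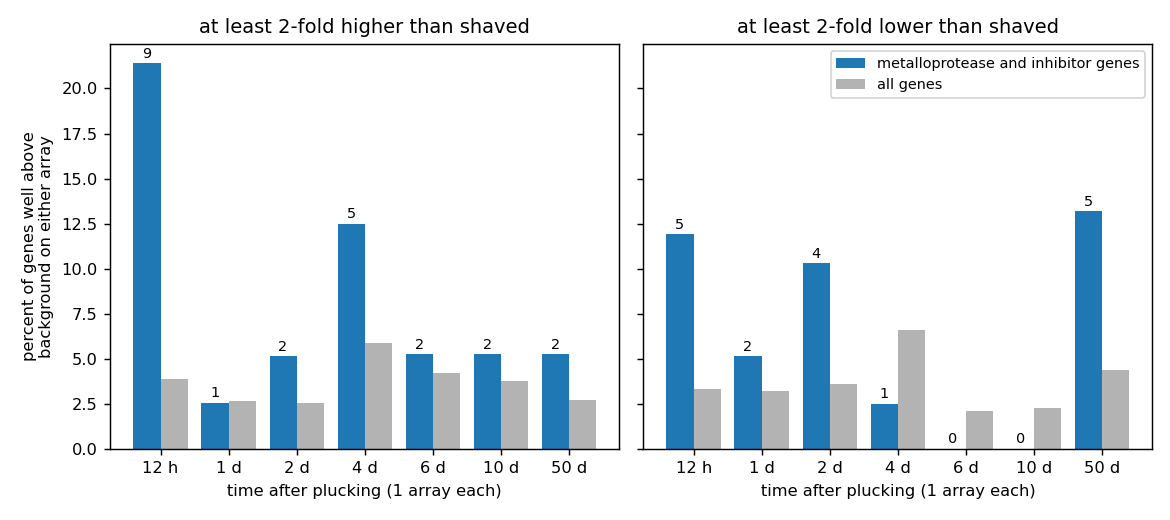
Share of the tested genes of the module (blue bars, with the number of genes above each) and of all genes (grey bars) at least 2-fold higher or lower than the shaved array at each time, in percent. At 12 h 21.4% of the module was higher against 3.85% of all genes, and at 6 d and 10 d none was lower.

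With normexp in place of the scanner's own background correction, 5 genes of the module were higher and 3 lower at 12 h (1.82% and 1.38% of all genes under that setting). The counts were 1 and 0 on day 1 (1.4% and 1.37%), 2 and 2 on day 2 (1.12% and 1.87%), and 2 and 1 on day 4 (3.69% and 3.06%). They were 1 and 0 on day 6 (2.13% and 1.17%), 1 and 0 on day 10 (1.84% and 0.798%), and 1 and 4 on day 50 (1.34% and 1.48%). The median over all 46 genes was -0.00 on day 1 (all genes 0.02), -0.11 on day 2 (0.01), -0.34 on day 4 (-0.13), -0.27 on day 6 (-0.09), 0.16 on day 10 (-0.05) and -0.31 on day 50 (-0.01). The module's median thus lay below that of all genes at each of these times except 10 d, when it lay above. The medians of all genes were over genes well above background on either array. Over module genes with such a signal the median was 0.00 on day 1, -0.11 on day 2 and -0.34 on day 4. It was -0.22 on day 6, 0.16 on day 10 and -0.33 on day 50, on the same side of all genes each time. On day 1 the module and all genes were nearly equal. With normexp the module's median was 0.03 on day 50 (all genes 0.05), still below, and 0.10 on day 1 (all genes 0.05), then above.

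The collagenases cut fibrillar collagen, and all 4 were dim on most arrays. Mmp13 (collagenase 3; probe at mm9 chr9:7282762-7282821) had a level of -4.96 shaved, -2.21 at 12 h, -4.74 on day 1, -4.21 on day 2, -6.14 on day 4, -6.50 on day 6, -6.89 on day 10 and -6.66 on day 50. It was well above background at 12 h, 1 d and 2 d and not on the other 5 arrays, so the shaved array gives only a bound, and the 12 h signal was at least 6.52-fold higher. The bounds at 1 d and 2 d were 1.13-fold and 1.63-fold.

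Mmp8 (collagenase 2, the collagenase of neutrophil granules; probe at mm9 chr9:7568238-7568297) was at -6.06 shaved, -2.89 at 12 h, -4.92 on day 1, -5.86 on day 2, -2.98 on day 4, -7.01 on day 6, -6.74 on day 10 and -6.91 on day 50. Only the 12 h and 4 d arrays were well above background, at least 4.07-fold and at least 3.84-fold above the shaved array. Mmp8 therefore had separate high arrays at 12 h and at 4 d with dim ones between them. The log2 summed signal of the 9 neutrophil markers was 3.01 shaved, 6.38 at 12 h and 2.48 on day 4, with 4 of 9 higher and 1 lower at 12 h, and 3 higher and 4 lower at 4 d. Over the other 5 arrays it ranged from 1.71 to 3.79. By this sum, and by the median difference of 0.96 at 12 h and -0.68 on day 4 (log2), the list was above shaved and then below it. Single markers went both ways at each time. The 4 higher at 12 h were Stfa1, S100a8, S100a9 and Cxcr2, and the 1 lower was Retnlg. The 3 higher at 4 d were Ngp (not well above background on the shaved array), Stfa1 and S100a8, with differences of 4.49, 2.18 and 1.15 (log2), and the 4 lower were Retnlg, S100a9, Cxcr2 and Ltf, with differences of -1.64, -1.55, -1.16 and -1.05. The part of neutrophil RNA in the Mmp8 signal was not tested. With normexp the Mmp8 differences were 0.95 at 12 h and 0.85 on day 4 (log2), below the 2-fold threshold, and that of Mmp13 at 12 h was 1.12.

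Mmp1b, a rodent interstitial collagenase, was well above background at 12 h alone, with a level of -5.02, and lay between -7.64 and -5.22 on the other 7 arrays. No fold can be given, since its 12 h signal lay below the lowest signal that counted as well above background on the shaved array. Its near copy Mmp1a, an interstitial collagenase with a closely similar promoter, was not well above background anywhere, and a probe of one can catch RNA of the other. With normexp the 12 h difference of Mmp1b was 0.36 (log2).

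The gelatinases, which cut denatured collagen and type IV collagen, spanned little more than 2-fold. Mmp2 (gelatinase A) was at 4.21 shaved, 3.68 at 12 h, 3.68 on day 1, 4.08 on day 2, 3.34 on day 4, 3.80 on day 6, 4.57 on day 10 and 3.45 on day 50. Mmp9 (gelatinase B) was at -1.45 shaved, -1.60 at 12 h, -1.82 on day 1, -1.32 on day 2, -1.79 on day 4, -1.26 on day 6, -0.60 on day 10 and -1.31 on day 50. Neither passed 2-fold against shaved at any time, and both had their highest array at 10 d.

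Among the stromelysins, broad matrix proteases that also activate other MMPs, Mmp3 and Mmp11 ran apart. Mmp3 (stromelysin 1) was at 3.97 shaved, 4.28 at 12 h, 3.42 on day 1, 2.90 on day 2, 2.47 on day 4, 3.31 on day 6, 3.67 on day 10 and 2.80 on day 50. It was 2.85-fold lower at 4 d than in shaved skin, the only gene of the module lower at that time, but differed from the 50 d array by only -0.34 (log2). On day 2 it was lower than shaved skin by a difference of -1.07 but differed from the 50 d array by 0.10 (log2). Mmp11 (stromelysin 3, usually made by stromal cells during remodelling; probe at mm9 chr10:75386024-75386083) was at 1.62 shaved, 2.16 at 12 h, 2.02 on day 1, 3.12 on day 2, 1.68 on day 4, 0.96 on day 6, 1.74 on day 10 and 1.09 on day 50. Its peak at 2 d was 2.84-fold above shaved, and Mmp11 was the only gene of the module with its highest array at 2 d. Its second probe gave the same peak, at 2.26 on the 2 d array against 0.16 to 1.15 on the others.

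Mmp12, the macrophage elastase, was at -3.13 shaved, -3.40 at 12 h, -3.10 on day 1, -3.19 on day 2, -3.47 on day 4, -3.44 on day 6, -2.13 on day 10 and -3.45 on day 50. The 10 d array was the highest, 1.99-fold above shaved skin and so just short of the 2-fold threshold, and its second probe was never well above background. Macrophage markers had a log2 summed signal of 7.97 on day 10, and of 6.76 (4 d) to 8.20 (shaved) on the other arrays. At 10 d 0 of the 8 were at least 2-fold higher than shaved and 1 was lower, with a median difference of -0.39 (log2). The highest array was 10 d for 3 of the 8 (Cd163, Mrc1 and Csf1r), as for Mmp12. It was the shaved array for Aif1, Cd68, Emr1 and Lyz2, and 6 d for Fcgr1. The part of macrophage RNA in the Mmp12 level was not tested. Mmp7 (matrilysin) and Mmp10 (stromelysin 2) spanned less than 2-fold over the arrays.

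Of the membrane-type MMPs, which are anchored at the cell surface, none but Mmp16 was counted as 2-fold from shaved. That count does not hold with its dim shaved level at its bound. Mmp16 was well above background at 4 d alone, at -4.89 against -7.74 to -6.87 on the other arrays, at least 1.02-fold above shaved. With normexp that difference was 0.39 (log2). Mmp15 was at -1.29 shaved, -1.60 at 12 h, -1.00 on day 1, -1.30 on day 2, -1.60 on day 4, -1.54 on day 6, -1.99 on day 10 and -0.88 on day 50, lowest at 10 d, where Mmp14 and Mmp17 were highest. Mmp25, a leukocyte enzyme, ranged from -5.17 on day 50 to -4.14 at 12 h and was not well above background at 2 d or 50 d. Mmp14, the chief activator of pro-Mmp2, stayed between 1.25 and 2.22, Mmp17 between -1.35 and -0.88, and Mmp24 between -3.55 and -2.68.

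Mmp19, a protease of basement membrane proteins (probe at mm9 chr10:128236221-128236280), was at -0.79 shaved, 1.00 at 12 h, -0.42 on day 1, -1.05 on day 2, -1.40 on day 4, -1.29 on day 6, -0.88 on day 10 and -1.30 on day 50. The 12 h array was 3.45-fold above shaved and stood clear of the other 7. Mmp23, a short membrane-bound form, was at 2.10 shaved, 0.85 at 12 h, 1.06 on day 1, 1.34 on day 2, 1.13 on day 4, 1.83 on day 6, 2.45 on day 10 and 1.22 on day 50. Mmp27 was at 0.31 shaved, -0.93 at 12 h, -0.66 on day 1, -0.76 on day 2, -0.45 on day 4, 0.26 on day 6, 0.47 on day 10 and -1.42 on day 50. Mmp23 and Mmp27 were both lower at 12 h than in shaved skin, with differences of -1.26 and -1.24 (log2), and back at or above the shaved level at 10 d. Against the 50 d array the Mmp23 difference was -0.37 at 12 h, and -0.16 on day 1 (log2), both short of the threshold. Mmp27 at 50 d was 3.3-fold below shaved. Averaged over its probes Mmp27 differed by -0.83 at 12 h and -0.89 on day 2 (log2), and against the 50 d array both differences turned positive, at 0.48 and 0.66. Mmp28 (epilysin, a skin and testis MMP) ranged from -4.87 on day 4 to -3.69 on day 1.

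The procollagen N-propeptidases of the ADAMTS family trim fibrillar procollagen so that it can assemble. Adamts14 was at 1.65 shaved, 0.74 at 12 h, 0.86 on day 1, 0.35 on day 2, 1.17 on day 4, 1.02 on day 6, 0.83 on day 10 and 0.61 on day 50, lower than shaved on every plucked array. Its second probe spanned only 0.38 (log2) over the arrays and was also highest in shaved skin. That probe differed from shaved by only -0.13 on day 1 and -0.02 on day 10 (log2), within the technical spread between probes. The size of the difference thus rests on 1 probe, and at those times so does its direction. Averaged over both probes the differences were -0.79 on day 2 and -0.64 on day 50 (log2), short of the threshold, and against the 50 d array the brighter probe differed by -0.26 on day 2. Adamts3 ranged from -5.08 on day 4 to -4.00 on day 1, and Adamts2, the main enzyme for type I collagen, from 4.44 at 12 h to 5.41 in shaved skin, just under 2-fold. The log2 summed signal of the fibroblast markers was also highest in shaved skin, at 10.17 against 9.51 to 9.92 after plucking. Of these markers Dpt was highest at 6 d, Pdgfra and Dcn at 10 d, and the others in shaved skin. The part of fibroblast RNA in these values was not tested.

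Among the proteoglycanases, Adamts4 (aggrecanase 1; probe at mm9 chr1:173190709-173190768) was at -0.50 shaved, 1.34 at 12 h, 0.23 on day 1, 0.44 on day 2, 2.35 on day 4, 0.75 on day 6, 0.46 on day 10 and 0.80 on day 50. The shaved array was the lowest of the 8, and the signal was 3.56-fold higher at 12 h, 7.19-fold at 4 d, 2.38-fold at 6 d and 2.46-fold at 50 d. Against the 50 d array these differences were smaller, 0.53 at 12 h, 1.54 on day 4 and -0.05 on day 6 (log2), so that only the 4 d one passed 2-fold. Its second probe also peaked at 12 h and 4 d, at -1.14 and -0.09, against -2.77 shaved and -2.60 to -1.57 on the rest.

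Adamts8 was at -0.48 shaved, -1.70 at 12 h, -1.18 on day 1, -1.06 on day 2, -1.22 on day 4, -0.11 on day 6, 0.90 on day 10 and -0.47 on day 50, which is 2.61-fold above shaved at 10 d. Its second probe ranged only from -1.77 to -1.14. That probe was also highest at 10 d, by 0.50 (log2) over shaved, so there the probes differ in size and not in direction. At 12 h it differed from shaved by only -0.01 (log2), so the lower level there rests on 1 probe. Adamts9, which cuts versican, was at -0.87 shaved, -0.60 at 12 h, -0.42 on day 1, -0.93 on day 2, 0.05 on day 4, -0.66 on day 6, -1.38 on day 10 and -0.80 on day 50 and passed 2-fold at no time. Adamts1, Adamts5, Adamts15 and Adamts20, the other versican- and aggrecan-cutting members, spanned 0.48, 0.91, 0.88 and 0.74 (log2).

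The substrates of these enzymes were measured on the same arrays. Of the 16 of 18 listed matrix substrates above background, 4 were at least 2-fold higher at 4 d (Acan, Fbn2, Lamb3 and Vcan) and 1 lower (Lum). At 12 h 0 were higher and 2 lower. Of all genes, 5.86% were higher and 6.58% lower at 4 d, and 3.85% and 3.33% at 12 h. Vcan (versican) was at 0.09 shaved, 0.87 at 12 h, -0.16 on day 1, -0.29 on day 2, 2.08 on day 4, 1.07 on day 6, 0.21 on day 10 and -0.21 on day 50. Acan (aggrecan) was at -0.48 on day 4 and between -3.13 and -2.37 elsewhere, and Fbn2 (fibrillin 2) at 0.71 on day 4 and between -1.93 and -0.51 elsewhere. The highest array of Adamts4 and of these substrates was thus 4 d. Dermal papilla markers stood beside them, with 5 of 8 higher at 4 d and a log2 summed signal of 3.99 against 1.72 to 3.44 on the other arrays. Hair shaft and inner root sheath markers were at 9.46 on day 4 and 2.73 to 9.55 elsewhere, with 7 of 8 higher at 4 d. Their part in the levels of Adamts4, Adamts18 and the substrates was not tested.

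Adamts18 (probes at mm9 chr8:116222720-116222779 and chr8:116368682-116368741) was at -2.27 shaved, -3.03 at 12 h, -2.70 on day 1, -2.33 on day 2, 0.03 on day 4, -0.87 on day 6, -2.11 on day 10 and -2.55 on day 50. It was 4.92-fold above shaved at 4 d and 2.64-fold at 6 d, and the 4 d and 6 d arrays stood clear of all others. Its second probe also had 4 d and then 6 d as its highest arrays, at -0.66 on day 4, -2.00 on day 6 and -4.22 to -3.35 on the rest. With normexp the 6 d difference was 0.93 (log2).

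Adamts7, a protease of cartilage oligomeric matrix protein, was at -3.36 shaved, -2.29 at 12 h, -3.15 on day 1, -2.96 on day 2, -2.25 on day 4, -3.55 on day 6, -3.89 on day 10 and -3.73 on day 50. Like Adamts4 it had separate high arrays at 12 h and 4 d. With normexp these differences were 0.53 and 0.61 (log2), below the threshold. Adamts12, its close relative, was at -1.79 shaved, -2.96 at 12 h, -2.45 on day 1, -2.34 on day 2, -2.60 on day 4, -2.53 on day 6, -1.76 on day 10 and -2.78 on day 50. By this probe it was lowest at 12 h and near its shaved level at 10 d. Its second probe was lowest at 1 d and highest at 4 d. At 10 d that probe differed from shaved by -0.93 (log2) and was not well above background. Averaged over both probes the 12 h difference of Adamts12 was -0.91 (log2), below the threshold. Adamts6 was well above background at 12 h alone, at -4.26 against -7.01 to -5.47, at least 1.57-fold above shaved. With normexp the 12 h differences of Adamts6 and Adamts12 were 0.25 and -0.90 (log2), and against the 50 d array that of Adamts12 was -0.19.

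Adamts19 was at -3.05 shaved, -5.96 at 12 h, -5.82 on day 1, -5.02 on day 2, -3.14 on day 4, -3.36 on day 6, -2.85 on day 10 and -4.36 on day 50. On the 12 h, 1 d and 2 d arrays it was not well above background, and shaved skin was at least 6.06-fold, 6.47-fold and 3.92-fold above them. The SD over 10 spots of its probe was 0.13 in shaved skin and 0.51, 0.78 and 0.31 on the 3 dim arrays (log2), a technical spread that leaves out variation between animals. Adamts19 was on the early arrays dim and from 4 d to 10 d near its shaved level. With normexp the difference was -1.07 at 12 h but below the threshold later, at -0.69 on day 1, -0.68 on day 2 and -0.32 on day 50 (log2).

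Adamts16 was at -3.38 shaved, -3.97 at 12 h, -3.59 on day 1, -3.71 on day 2, -4.01 on day 4, -2.90 on day 6, -1.78 on day 10 and -2.47 on day 50, which is 3.03-fold above shaved at 10 d. Its second probe ranged only from -3.88 to -3.55. Adamts13, which cuts von Willebrand factor, ranged from -4.63 on day 4 to -3.57 on day 10. Adamts17 moved by 0.59 (log2) by its brightest probe (mm9 chr7:74147413-74147472), but its second probe (mm9 chr7:74297448-74297507) was at -1.68 on day 4 and -3.42 on day 6 against -5.82 to -4.43 on the rest. For Adamts8, Adamts16 and Adamts17, as for the lower calls of Adamts12, Adamts14 and Mmp27, the choice of probe therefore decides whether a 2-fold difference is seen. Averaged over both probes, the 10 d differences were 0.94 for Adamts8 and 0.80 for Adamts16 (log2), and that of Adamts8 at 12 h was -0.61. Against the 50 d array the 10 d difference of Adamts16 was 0.69.

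**Figure D3:**
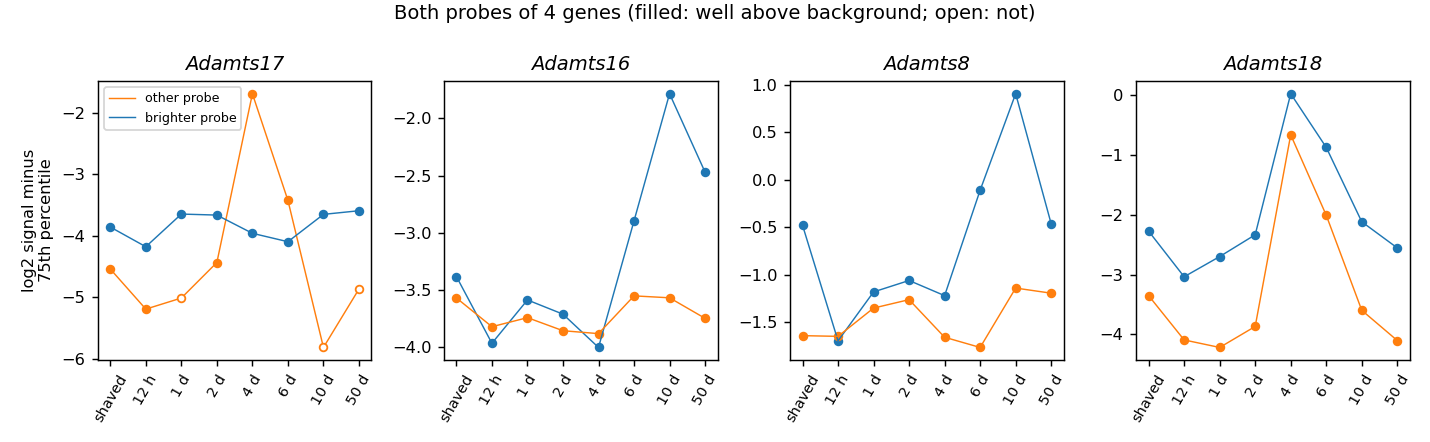
Level (log2, relative to the 75th percentile of each array) of both probes of 4 genes on the 8 arrays, with a line for each probe and open symbols for values not well above background. For Adamts18 both probes are highest at 4 d, while for Adamts8, Adamts16 and Adamts17 only 1 probe spans over 2-fold.

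Of the 4 TIMPs, Timp1 and Timp4 passed 2-fold against shaved and Timp2 and Timp3 did not. Timp1, the inhibitor typical of injured and inflamed tissue (probe at mm9 chrX:20451802-20451861), was at 0.86 shaved, 2.89 at 12 h, 1.49 on day 1, 0.39 on day 2, 0.25 on day 4, 0.04 on day 6, 0.02 on day 10 and -0.43 on day 50. It was 4.08-fold above shaved at 12 h, highest there, and 2.46-fold below shaved at 50 d. Timp4, the inhibitor of fat and heart (probe at mm9 chr6:115196120-115196179), was at -0.04 shaved, 1.92 at 12 h, 1.43 on day 1, 1.14 on day 2, 0.29 on day 4, 0.41 on day 6, 0.59 on day 10 and 0.99 on day 50.

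Timp4 was lowest in shaved skin, 3.89-fold above it at 12 h and 2.77-fold at 1 d, and above it on every plucked array. Against the 50 d array it was below the threshold throughout, at 0.93 at 12 h, 0.44 on day 1 and 0.15 on day 2 (log2). Adipocyte markers, with which Timp4 shares its tissue, had a log2 summed signal of 9.37 shaved, 9.33 at 12 h, 9.71 on day 1, 9.77 on day 2 and 9.56 on day 50, with 0 of 8 at least 2-fold higher at the first 3 of these times and 1 of 8 at the last. Their part in the Timp4 level was not tested. Timp2, which also takes part in activating pro-Mmp2, was at 7.76 shaved, 7.17 at 12 h, 7.39 on day 1, 7.59 on day 2, 7.13 on day 4, 7.65 on day 6, 8.25 on day 10 and 7.48 on day 50. Timp3, the matrix-bound inhibitor that also blocks ADAM17 and aggrecanases, was at 4.87 shaved, 4.04 at 12 h, 4.54 on day 1, 4.89 on day 2, 4.51 on day 4, 4.87 on day 6, 5.06 on day 10 and 4.60 on day 50. Timp2 and Timp3 both had their highest array at 10 d. With normexp the 50 d difference of Timp4 was 0.92 (log2).

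**Figure D4:**
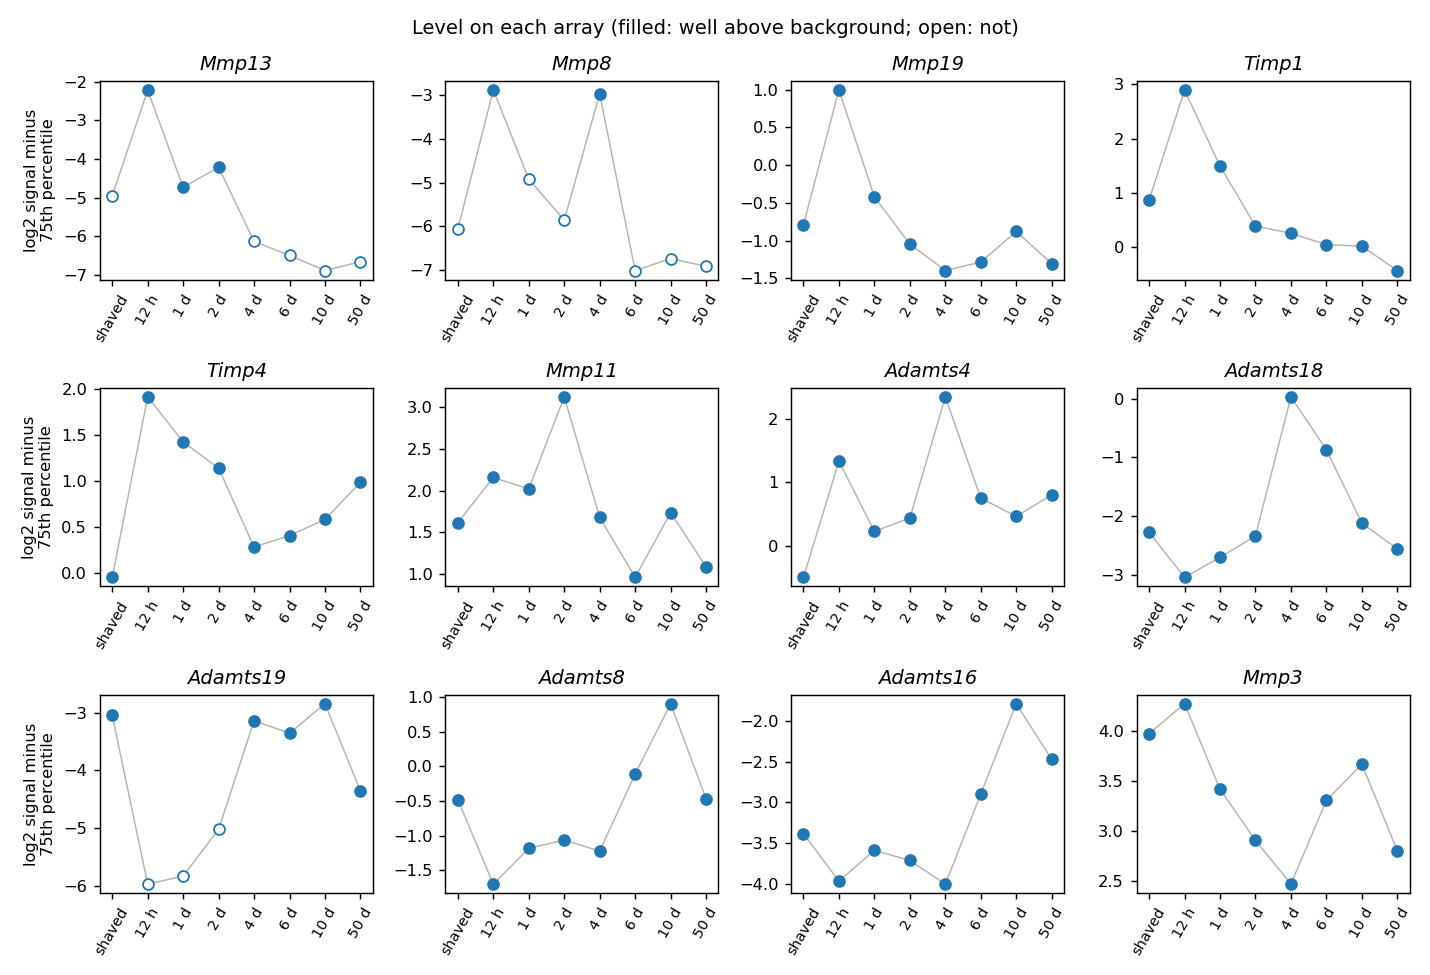
Level (log2, relative to the 75th percentile of each array) of 12 genes by array, in order of time and evenly spaced, with open symbols for values not well above background. Timp1, Mmp19 and Mmp13 are highest at 12 h, Mmp11 at 2 d, and Adamts4 and Adamts18 at 4 d.

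Over the 8 arrays, 31 of the 43 genes above background on at least 1 array spanned at least 2-fold, or 72.1%, against 38.3% of all genes. With dim levels set at the lowest signal above background, 29 did (67.4%; 34.3% of all genes), without Mmp1b and Mmp16. The other 12 spanned between 0.46 and 0.98 (log2). The highest array was the 10 d one for 16 of the 43 (37.2%; 16.7% of all genes) and 12 h for 10 (23.3%; 9.38% of all genes). It was 50 d for 2 genes, where 20.8% of all genes were highest, 4 d for 5 (14.7% of all genes), shaved for 4 (13.1%), 1 d for 4 (11.5%), and 2 d and 6 d for 1 each (8.05% and 5.77%). The genes highest at 10 d included Mmp9, Timp3, 6 Adamts genes, and Mmp2, Mmp14 and Timp2, the members of the complex that activates pro-Mmp2. Mmp2, Mmp14 and Timp2 differed from shaved at 10 d by only 0.36, 0.16 and 0.49 (log2). The second Timp2 probe differed by 0.07. The median SD between probes of one gene at 10 d was 0.16, so a rise of the complex over shaved skin is not shown. On the 10 d array itself only Adamts8 and Adamts16 among the 16 genes highest there were at least 2-fold from shaved. The 10 d array was also the array with the spike-in slope outside its range, and the part of this in the count was not tested. The lowest array was 12 h for 9 genes (20.9%; 10.8% of all genes), among them Adamts8, Adamts12, Adamts18, Adamts19 and Timp3, and 4 d for another 9 (20.9%; 25.4% of all genes), among them Mmp2, Mmp3, Mmp12 and Timp2. The remaining genes had their lowest array at 6 d (6; 15.4% of all genes), 50 d (5; 14.5%), 1 d (4; 5.46%), 2 d (4; 5.48%), 10 d (4; 15.4%) and in shaved skin (Adamts4 and Timp4; 7.66%).

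**Figure D5:**
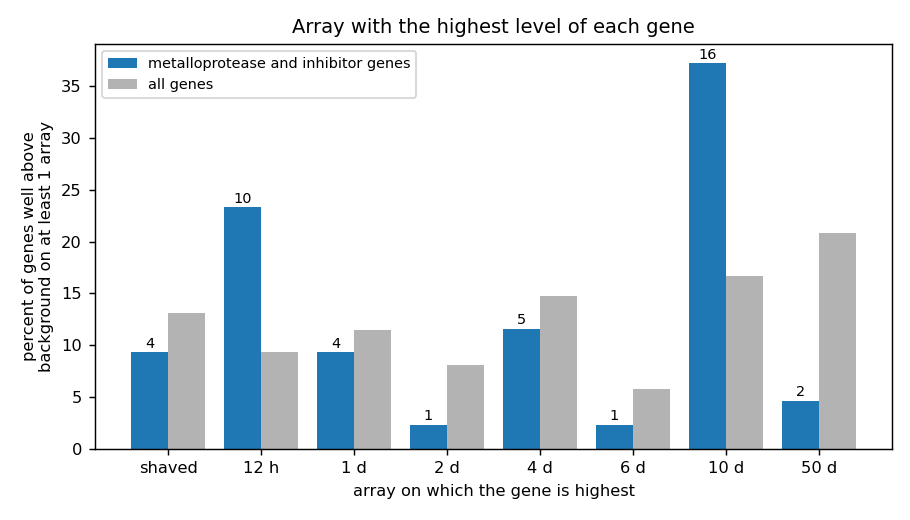
Share of genes, in percent, whose highest of the 8 arrays is the one named, for the module (43 genes) and for all genes. The module is above all genes at 12 h (23.3 against 9.38%) and 10 d (37.2 against 16.7%) and below at 50 d.

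The arrays were also set in an early window (12 h, 1 d and 2 d) and a late one (4 d, 6 d and 10 d). Mmp11, Mmp13, Timp1 and Timp4 had all 3 late arrays below all 3 early ones (4 of 43, or 9.3%; 13.3% of all genes). Adamts15, Adamts18, Adamts19 and Mmp27 had all 3 late arrays above the early ones (4 of 43, or 9.3%; 4.85% of all genes). Mmp13 and Adamts19 were not well above background on some of these arrays.

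Genes that act on these enzymes or alongside them were counted in the same way. Of 22 activators, cofactors and other inhibitors, 1 was higher and 0 lower at 12 h, 2 and 2 on day 1, and 1 and 1 on day 2. The counts were 1 and 3 on day 4, 1 and 1 on day 6, 1 and 0 on day 10, and 0 and 2 on day 50. Over these times 2.56 to 5.86% of all genes were higher and 2.09 to 6.58% lower, with the largest shares at 4 d. Serpinb2, an inhibitor of plasminogen activators, was at -3.69 shaved, -0.03 at 12 h, 0.51 on day 1, -1.76 on day 2, -2.53 on day 4, -2.01 on day 6, -2.86 on day 10 and -3.25 on day 50. Papln (papilin, an ADAMTS-like matrix protein) was highest at 10 d, at -0.33 against -2.99 to -1.41 elsewhere, and Plau (urokinase) ranged from -0.70 on day 4 to 0.78 on day 10.

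Of 9 ADAM proteases, the membrane-bound relatives that shed surface proteins, none was higher at any time, against 2.56 to 5.86% of all genes. For 9 genes a count of 0 lies near those shares. The lower count was 1 on day 1 (3.21% of all genes), 2 on day 2 (3.57%), 2 on day 4 (6.58%) and 2 on day 50 (4.4%). Adam8, a leukocyte sheddase, was at 2.76 shaved, 2.58 at 12 h, 2.02 on day 1, 1.48 on day 2, 0.87 on day 4, 2.06 on day 6, 2.60 on day 10 and 1.42 on day 50. Adam23 was likewise highest in shaved skin, at 1.80, and lowest at 2 d, at 0.13. Macrophage markers too had their lowest log2 summed signal at 4 d, 6.76 against 8.20 in shaved skin, with 8 of 8 lower, and their part in the Adam8 level was not tested.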

How the data were processed

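RNA of 8 samples was hybridised to one-colour Cy3 Agilent arrays, 1 array a group and no replicates. The authors deposited the scanner tables of Agilent Feature Extraction 10.5.1.1, and the values used are the processed signal intensity, background-subtracted and detrended by that software, per the file headers. Probe positions are on mm9, per the file headers. Control spots and outlier spots (by the scanner's flags) were removed, spots of a probe were averaged, and log2 intensity minus the 75th percentile of each array was taken with Python 3.11.15. No annotation of the mm9 build was used, so the exon hit by each probe is not given.

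A gene with several probes was represented by its brightest probe. Differences were called at 2-fold where the brighter array was well above background. Where the dimmer array was not, the bound was taken against the higher of its own signal and the lowest well-above-background signal of that array. Such folds are given as at least that large, and the number of arrays limits the precision. The genes named were those spanning at least 2-fold over the arrays, by role, at most 30 beside the Timp genes. Of each list of related genes up to 4 with the widest span were named, and 1 such gene is not reported here. The members and lists were chosen with earlier results of these data known. No test was made, since each group has 1 array. The counting was tested on simulated data, with changes well beyond 2-fold in genes well above background. Differences near the threshold, dim genes and bounds were not covered by it. Against the RefSeq gene table, 43 of the 46 symbols were unchanged, and 3 (Adamts3, Adamts4 and Mmp27) were not matched and kept the array's name.

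The alternatives were quantile normalisation, the median of probes above background as centre, normexp (limma 3.58.1, offset 50), the mean over probes, other filters on dim genes and the 50 d array as reference.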

Additional observations from a re-analysis of the deposited data

How the results depend on the processing

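No paired analysis was possible because each group has 1 array. No replicate could be left out for the same reason. Quantile normalisation and centring on the median of probes above background left all 19 counts within 1.5 times of the reported ones. Under normexp, which moved the median of all genes by -0.11 (log2) at 6 d, the higher counts were 5 at 12 h, 2 on day 4, and 1 each on days 6, 10 and 50, and the lower counts 3 at 12 h, 0 on day 1 and 2 on day 2. It moved 21 of 40 single differences beyond the technical spread and reversed none, and the 12 h difference of Adamts19 became -1.07 (log2). With the mean over probes the lower counts were 2 each at 12 h and on days 2 and 4, and the higher count at 10 d was 0, since Adamts8 and Adamts16 each rested on 1 probe. Without a filter on dim genes the counts were 2 higher at 1 d and 2, 2 and 1 lower on days 4, 6 and 10. Requiring both arrays above background left 5 higher at 12 h, 1 lower on day 1 and 3 higher on day 4. Against the 50 d array in place of the shaved one, 3 were lower at 12 h, 2 higher at 1 d, 1 lower at 2 d, and 7 higher and 1 lower at 10 d. This reference also turned the sign of Mmp27 at 12 h (0.48) and 2 d (0.66), Mmp3 at 2 d (0.10) and Adamts4 at 6 d (-0.0515, all log2), so these differences depend on which array is the reference. In an alternative chosen after seeing the data, leaving out the 10 d array raised the genes with late arrays all below early ones from 4 to 9. With fewer late arrays the rule is looser for every gene, and its share over all genes was not computed. The causes of these changes were not tested except where stated. For the mean over probes, the other filters on dim genes and the 50 d reference, the shares of all genes called were not computed. The counts under those settings therefore cannot be set against all genes. Dim genes (Mmp13, Mmp8, Mmp1b, Mmp16, Adamts6 and Adamts19) are limited by signal over background, and no value here has a biological error.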
